A study of Mus musculus with 6 samples.

Results

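The genes described here are 54 genes that a cell uses to divide: mitotic kinases and their partners, spindle motors, kinetochore proteins, proteins of the checkpoint and of cytokinesis, and proteins that shape mitotic chromosomes. They were taken as a named list of symbols, and all 54 were found among the 26128 genes of the deposited table of read counts. All 54 also passed the filter on low counts, which left 14671 genes to be tested. The study compared DNT cells (double negative T cells, which carry CD3 but neither CD4 nor CD8) cultured with and without IL-33, a cytokine of the IL-1 family. Adult C57BL/6 mice gave the CD4+CD25- T cells from which the DNT cells were made, in culture with mature dendritic cells of DBA/2 mice and IL-2, before a sort for CD3+NK1.1-CD4-CD8- cells. Both groups then received anti-CD3/CD28 beads for 48 h, the IL-33 group with IL-33 at 50 ng/ml and the control group without it. Each group had 3 libraries. Neither the labels nor the methods tell if these were separate mice, conversions or wells, so p-values measure only the spread between these samples.

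A cell enters mitosis when cyclins switch on the kinase CDK1. Spindle microtubules then attach to kinetochores, which are built on the centromeres of condensed chromosomes, and a checkpoint holds the anaphase-promoting complex (APC/C) back until every kinetochore is attached. Most of these genes are transcribed late in the cell cycle. T cells divide in bursts after stimulation through CD3 and CD28, and Ki67 and cyclin B serve as marks of the dividing cells.

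The libraries held from 20256342 to 22336050 counts. Levels are given as CPM, which are counts in 1000000 counts of a library, with library sizes scaled by TMM. The T cell markers Cd3d, Cd3e, Cd3g, Cd247, Trac, Lck, Cd2 and Cd5 together gave 1994 to 2132 CPM in controls and 2094 to 2154 CPM with IL-33. Within this sum Lck, Cd2 and Cd5 fell and Cd3g rose at an adjusted p under 0.05. The log2 fold changes were -0.16 for Cd2, -0.43 for Cd5 and 0.13 for Cd3g. The calls of Cd5 and Cd3g were lost by DESeq2 and without control replicate 3. Cd4 stayed at or below 1.08 CPM, whereas Cd8a stood between 393 and 561 CPM although the cells had been sorted as CD8-, and was lower with IL-33 (log2 fold change -0.45 ± 0.028 SE, adjusted p = 2.4e-26). Cd8b1, the other chain of CD8, moved the other way, from 9.52, 11.4 and 8.12 CPM to 16.8, 18.1 and 14.0 CPM (log2 fold change 0.75 ± 0.11 SE, adjusted p = 6.2e-08). The 10 dendritic and myeloid cell markers summed to 68.6 to 71.8 CPM in controls and 41.9 to 46.5 CPM with IL-33, most of it Itgax and Xcr1, while Flt3, Siglech, Csf1r, Lyz2, Adgre1 and Fcgr1 did not exceed 0.585 CPM. Of these markers 4 passed the filter and 1, Itgax, fell. The 5 mast cell and basophil markers summed to 14.9 to 19.7 CPM in controls and 10.2 to 13.6 CPM with IL-33, with Ms4a2 and Fcer1a at or below 0.565 CPM and Mcpt4 not listed. Of these markers 2 passed the filter and 1, Cpa3, fell (log2 fold change -0.62). The 2 NK cell markers summed to 30.5 to 35.1 and 24.5 to 27.0 CPM. Nearly all of it was Klrb1c, which encodes NK1.1, although the cells had been sorted as NK1.1-. Klrb1c was the 1 NK cell marker that passed the filter, and it fell (log2 fold change -0.39). The 5 B cell markers, of which Ms4a1 and Pax5 are not listed, summed to 4.79 to 5.70 and 5.30 to 6.35 CPM. The part of these cells in the results below was not tested.

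Transcripts of the mitotic genes were lower with IL-33. With edgeR's quasi-likelihood test and Benjamini-Hochberg adjustment over all genes tested, 53 of the 54 genes fell at an adjusted p under 0.05, where 13.9% of all genes tested fell, and 18.9% of the 9038 genes at least as abundant as the least abundant of the 54 (a mean of 9.09 CPM). By edgeR none of the 54 rose at an adjusted p under 0.05, where 13.6% of all genes tested and 17.9% of those at least as abundant rose. All 54 fitted changes were below 0, so that none rose at an unadjusted p under 0.05 either. By DESeq2 and limma-voom none of the 54 rose at an adjusted p under 0.05. The median log2 fold change was -0.48, which is 71.8% of the control level, beside a median of -0.00063 over all genes tested, and 6.84% of all genes tested lay at or below -0.48. In these bulk libraries, fewer dividing cells and less of each transcript per dividing cell cannot be told apart. By flow cytometry the paper reports the other direction for protein: Ki67 staining of DNT cells rose with IL-33, in culture and after transfer into mice. BrdU incorporation, its other measure of proliferation, also rose after transfer. From its RNA sequencing the paper lists cell division among the processes enriched in its changed genes. By gene set enrichment analysis it reports an increase in positive regulation of leukocyte proliferation. How these results relate to the lower transcripts here was not tested.

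The falls were modest in size and spread over the whole list. They came to at least 20% of the control level in 43 genes, at least 25% in 35 genes and at least 30% in 16 genes. The study's thresholds, an adjusted p under 0.05 and a fold change of 1.5, were passed together by 7 of the 54 genes, Knl1, Pimreg, Spc24, Ccna2, Spc25, Nek2 and Prc1, and by 2.39% of all genes tested in the same direction (1.24% of the genes at least as abundant). In the other direction 2.47% of all genes tested and 1.11% of the genes at least as abundant passed both. Prc1, with a log2 fold change of -0.59, lay just inside the fold threshold and Top2a, with -0.57, just outside it. The number past both was 5 when replicate 1 of the controls, or 2 or 3 of the IL-33 group, was left out, and 9 without control replicate 3. When the test itself asked whether a change exceeded 1.5-fold, 0 of the 54 genes passed, the smallest adjusted p being 0.489, for Knl1, which was also the 1 gene with an unadjusted p under 0.05 in that test by edgeR.

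**Figure D1:**
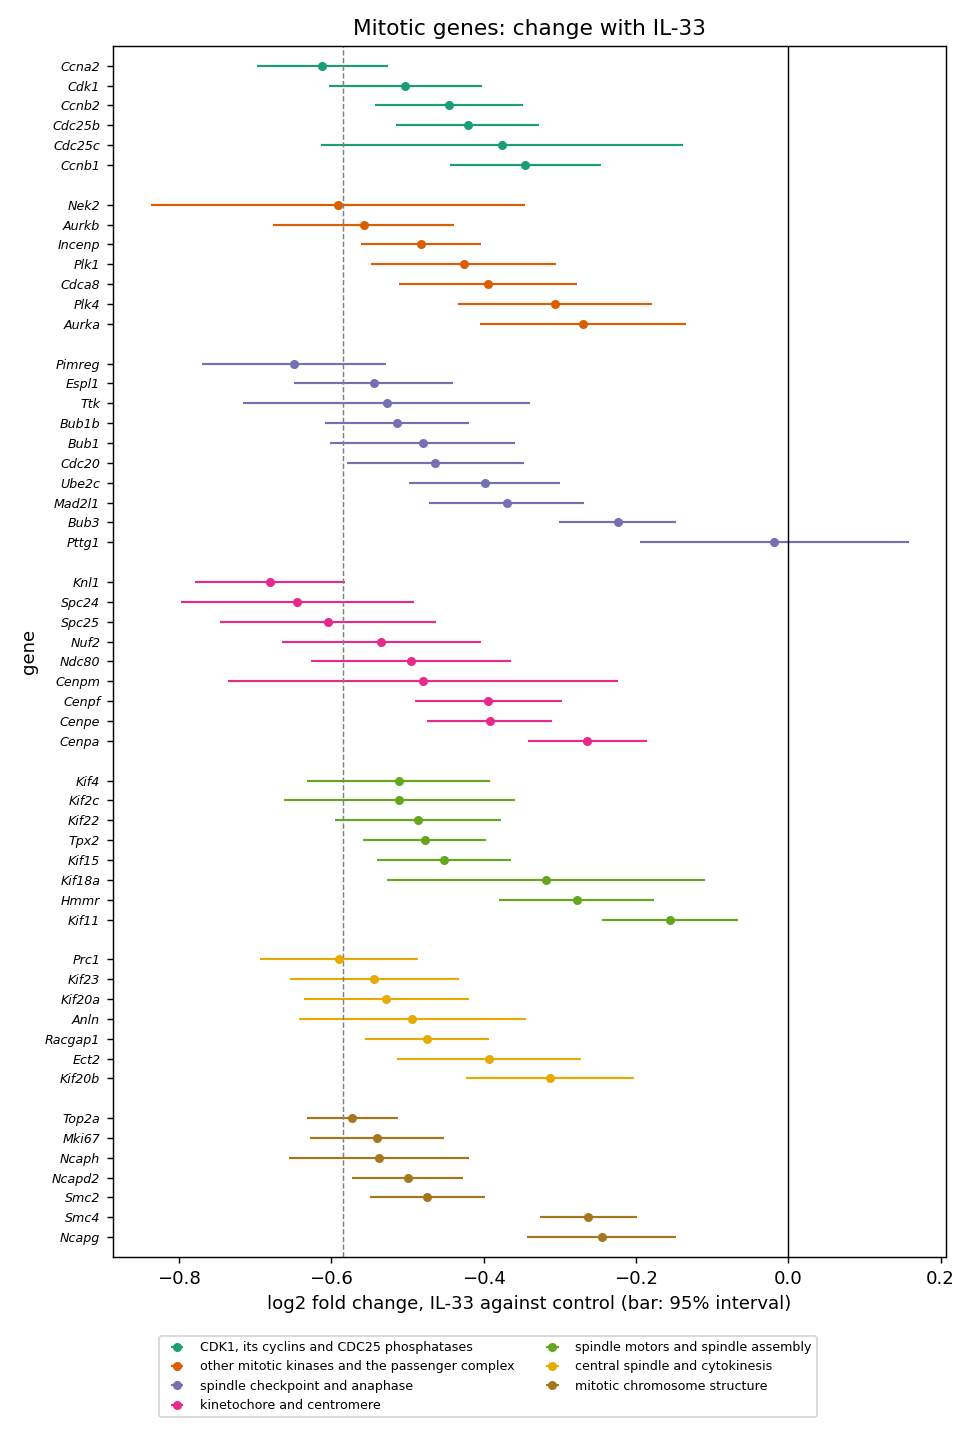
Change of each of the 54 mitotic genes with IL-33 as a log2 fold change (x axis), grouped by role, with points for the estimate of edgeR's fit over 3 libraries a group and bars for its 95% interval. The solid line marks no change and the dashed line a fall of 1.5-fold, and the interval lies below 0 for 53 of the 54 genes, all but Pttg1.

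Library by library, the 54 genes summed to 5229, 4932 and 4745 CPM in the controls and to 3673, 3614 and 3621 CPM with IL-33. As a share of the TMM-scaled library sizes this was 0.497% ± 0.0244 (SD, n = 3) in controls and 0.364% ± 0.00323 (SD, n = 3) with IL-33. On this scale the sum fell by 26.8%. The groups were far apart beside this spread, and the controls varied more among themselves than the IL-33 libraries did. In 52 of the 54 genes every control library lay above every IL-33 library, a pattern found in 19.5% of all genes tested and in 24.4% of the genes at least as abundant, and the exceptions were Kif18a and Pttg1. Control replicate 1 held the highest value for 41 genes, control replicate 2 for 11, control replicate 3 for 1 and IL-33 replicate 3 for 1, which was Pttg1. Without control replicate 1 the median log2 fold change was -0.44, and 50 of the 54 genes still fell.

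**Figure D2:**
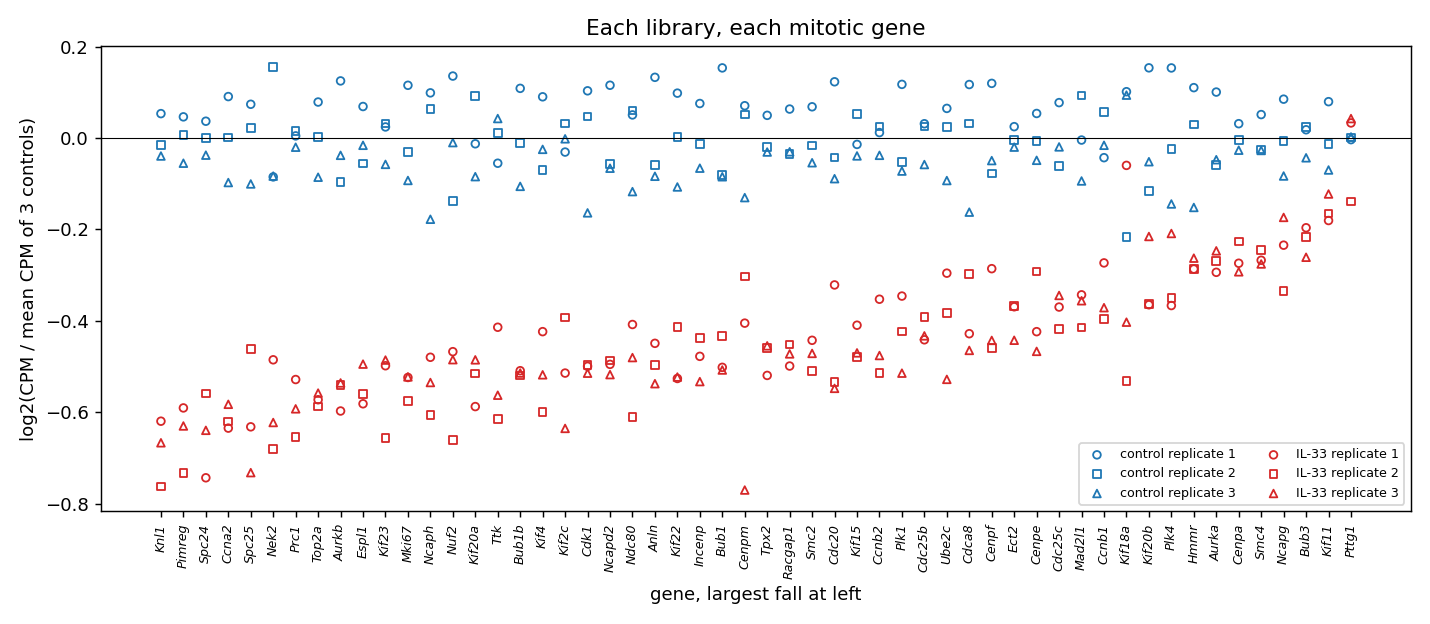
Level of each mitotic gene in each library as the log2 of its CPM over the mean CPM of the 3 controls (y axis), with genes ordered from the largest fall at left. Blue symbols are the 3 control libraries and red symbols the 3 IL-33 libraries, which overlap only for Kif18a and Pttg1.

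Promoters of mitotic genes are known for a pair of short elements, and the sequences in front of the genes are shown because most of these genes share them beside their function. The cell cycle genes homology region, or CHR, is bound by the MuvB core of the complexes that also hold B-MYB, FOXM1 or the pocket proteins, and CCAAT boxes are bound by NF-Y. In the RefSeq promoter table for GRCm38.p6, which gives 250 bases before and 50 bases after a start of transcription, 45 of the 54 genes were matched by symbol. Ccna2, Cdc25c, Aurkb, Incenp, Spc24, Kif20a, Tpx2, Smc4 and Pimreg were not matched. The CHR was searched as TTTGAA (read as TTCAAA on the other strand) or as its variant TTCGAA, and the CCAAT box as CCAAT (read as ATTGG on the other strand). Both strands were searched, and matches of the pair of elements do not overlap in the stretches printed. Below are 120 bases before and 30 bases from the start in the direction of transcription, with matches in capitals.

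Cdk1 has CHR matches 71 and 15 bases before its start, and Ccnb2, Cdc20, Spc25 and Prc1 each show 1 CHR match within 25 bases of the start with 1 or more CCAAT matches before it. Nek2 shows CCAAT matches and no CHR match, and Pttg1, the gene without a fall, shows neither. The outermost start in GENCODE lies 270 bases upstream of the RefSeq start used for Pttg1, and 328, 412, 2394 and 3867 bases upstream for Kif4, Cenpm, Cdca8 and Kif2c, which are counted below as holding a CHR match, so these windows may not be at the start in use. The stretches are chr10:69352883-69353032 (minus strand) for Cdk1, chr9:70421525-70421674 (minus) for Ccnb2, chr4:118437314-118437463 (minus) for Cdc20, chr2:69206184-69206333 (minus) for Spc25, chr7:80294331-80294480 (plus) for Prc1, chr1:191821353-191821502 (plus) for Nek2 and chr11:43425952-43426101 (minus) for Pttg1.
Cdk1: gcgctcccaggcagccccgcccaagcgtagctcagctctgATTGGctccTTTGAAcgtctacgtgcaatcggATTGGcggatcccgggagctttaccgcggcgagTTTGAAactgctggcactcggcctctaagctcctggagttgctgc
Ccnb2: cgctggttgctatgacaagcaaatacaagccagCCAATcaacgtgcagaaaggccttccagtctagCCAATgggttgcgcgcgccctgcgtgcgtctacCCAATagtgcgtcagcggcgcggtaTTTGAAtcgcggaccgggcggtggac
Cdc20: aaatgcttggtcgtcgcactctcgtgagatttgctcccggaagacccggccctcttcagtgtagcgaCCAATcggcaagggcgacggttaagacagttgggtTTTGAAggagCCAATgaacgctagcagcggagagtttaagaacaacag
Spc25: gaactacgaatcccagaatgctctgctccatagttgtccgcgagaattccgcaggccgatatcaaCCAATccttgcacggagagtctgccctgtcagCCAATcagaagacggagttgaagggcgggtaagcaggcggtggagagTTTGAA
Prc1: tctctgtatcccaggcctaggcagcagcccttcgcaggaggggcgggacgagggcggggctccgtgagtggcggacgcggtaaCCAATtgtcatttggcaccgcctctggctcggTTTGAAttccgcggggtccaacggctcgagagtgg
Nek2: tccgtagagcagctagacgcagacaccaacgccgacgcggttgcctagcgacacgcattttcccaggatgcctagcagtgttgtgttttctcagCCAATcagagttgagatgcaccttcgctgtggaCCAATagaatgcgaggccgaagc
Pttg1: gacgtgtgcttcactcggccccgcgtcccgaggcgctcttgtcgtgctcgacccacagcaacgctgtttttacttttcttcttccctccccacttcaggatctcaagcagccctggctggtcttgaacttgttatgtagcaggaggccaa

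A CHR match lay in 36 of the 45 promoters (80.0%), against 21.7% of the 27025 genes in the table and 16.7% of the 10068 tested genes with a promoter there. Near the start the contrast in shares was wider: within 50 bases on either side, 32 of the 45 (71.1%) held a CHR match, against 6.12% of all genes in the table. CCAAT lay in 33 of the 45 (73.3%), against 41.1% of all genes in the table, and both elements in 30 of the 45 (66.7%), against 8.61%. Of the neighbouring CCAAT matches in these promoters, 40 pairs in all, 10 were spaced 31 to 34 bases apart. This spacing was not counted in the other promoters of the table, so it cannot be called particular to these genes. Among 26 DNA replication genes with a promoter, which are induced earlier in the cell cycle, 6 (23.1%) held a CHR match anywhere, 2 of them (7.69%) within 50 bases of the start, and 16 (61.5%) held CCAAT. These are counts of letters, and a match is not a bound site.

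Genes with and without these matches fell. The 36 genes with a CHR match all fell, with a median log2 fold change of -0.48 and a range of -0.68 to -0.16. The 9 genes without one were Ccnb1, Plk4, Mad2l1, Nek2, Pttg1, Nuf2, Cenpe, Kif18a and Ncaph, of which 8 fell, with a median of -0.37 and a range of -0.59 to -0.018. With and without CCAAT the medians were both -0.47, over 33 and 12 genes. The 9 genes not matched in the promoter table could not be sorted by either element. They all fell, with a median of -0.53 and a range of -0.65 to -0.26. Of these 9, 3 passed both thresholds, as did 3 of the 36 with a CHR match and 1 of the 9 without one. No test was made of these medians.

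**Figure D3:**
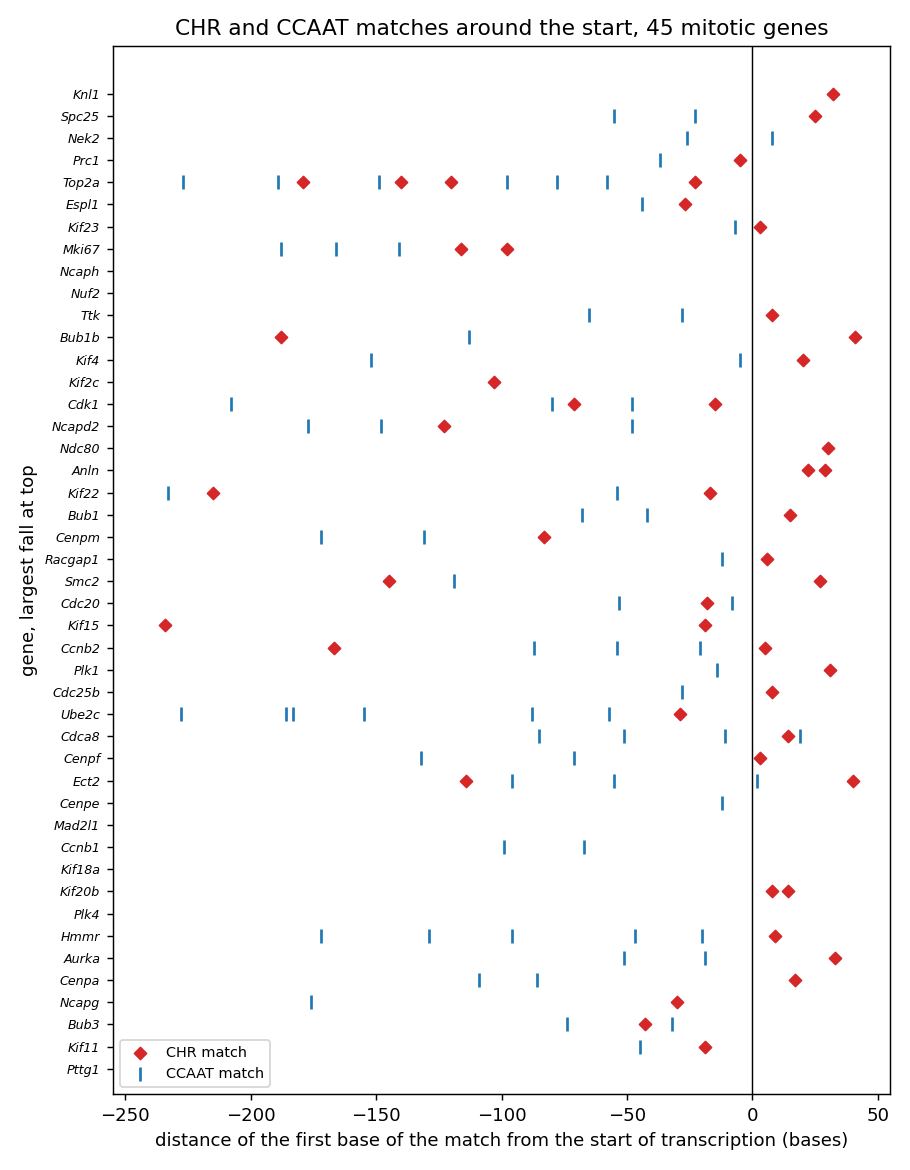
Position of CHR matches (red diamonds) and CCAAT matches (blue bars) on either strand in the promoters of 45 mitotic genes, as the distance of the first base of the match from the RefSeq start (x axis, bases), with genes ordered from the largest fall at top. For Bub3, Ect2 and Prc1, which have several starts, the one listed first is drawn, and 32 of the 45 genes hold a CHR match within 50 bases of a start.

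The engine of mitotic entry is CDK1 with its cyclins, and the CDC25 phosphatases that activate it. All 6 of these genes fell, with a median log2 fold change of -0.43, and Ccna2 alone among them passed both thresholds. Ccna2 (ENSMUSG00000027715, chr3:36564865-36572150, minus strand), which encodes the cyclin A2 of S phase and G2, gave 120, 113 and 105 CPM in the controls and 72.5, 73.2 and 75.2 CPM with IL-33. No IL-33 library came near the controls, and the log2 fold change was -0.61 ± 0.043 SE (adjusted p = 5.1e-23). Exons of Ccna2 share 510 bases with Exosc9 on the other strand, whose own log2 fold change was -0.0018 (adjusted p = 0.991). Cdk1 gave 84.7, 81.5 and 70.4 CPM in the controls against 55.8, 55.9 and 55.2 CPM, and fell by 0.50 on the log2 scale (SE 0.051, adjusted p = 1.8e-13). The controls of Cdk1 spread widely while its IL-33 libraries lay close together, below every control. Of the B-type cyclins that carry CDK1 into mitosis, Ccnb2 went from 75.9, 76.6 and 73.3 CPM to 59.0, 52.7 and 54.1 CPM, a log2 fold change of -0.45 ± 0.049 SE. Ccnb1 had the smallest fall of the 6, from 67.8, 72.7 and 69.1 CPM to 57.8, 53.1 and 54.05 CPM, with a log2 fold change of -0.35 ± 0.050 SE (adjusted p = 1.0e-08). For both cyclins the lowest control was above the highest IL-33 library. Ccnb1 and Ccnb2 each have an annotated pseudogene with which reads could be shared. The phosphatases Cdc25b and Cdc25c had log2 fold changes of -0.42 and -0.38, the latter at 12.3 CPM or less in every library and no longer called without control replicate 1 (adjusted p = 0.0566).

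The other mitotic kinases and the chromosomal passenger complex, in which Aurora B works with INCENP and borealin (Cdca8), fell in all 7 cases, with a median log2 fold change of -0.43. Nek2, a kinase that parts the centrosomes before the spindle forms, gave 11.2, 13.2 and 11.2 CPM in the controls and 8.46, 7.39 and 7.70 CPM with IL-33. Its log2 fold change of -0.59 had a wide interval, from -0.84 to -0.35 (adjusted p = 6.4e-05), and Nek2 (ENSMUSG00000026622, chr1:191821444-191833050, plus strand) passed both thresholds. Gm38037, on the other strand, shares 298 exon bases with Nek2. Aurkb, whose kinase corrects faulty attachments, gave 58.9, 50.5 and 52.6 CPM against 35.7, 37.2 and 37.3 CPM, a log2 fold change of -0.56 ± 0.060 SE (adjusted p = 1.6e-13). Aurka, the Aurora kinase of the spindle poles, changed least in this role, from 38.1, 34.1 and 34.4 CPM to 29.0, 29.5 and 29.9 CPM, with a log2 fold change of -0.27 ± 0.068 SE (adjusted p = 0.0011). The Aurkb and Aurka groups did not overlap between conditions, and the 95% interval of Aurkb, -0.68 to -0.44, lay wholly below that of Aurka, -0.40 to -0.13. Aurka was picked as the smallest change of the role, and the difference between these genes was not tested. Plk1, the polo kinase of mitotic entry and exit, gave 54.8, 48.7 and 48.0 CPM in the controls and 39.8, 37.7 and 35.4 CPM with IL-33 (log2 fold change -0.43 ± 0.061 SE, adjusted p = 7.4e-09). Incenp, Cdca8 and Plk4, the kinase of centriole copying, had log2 fold changes of -0.48, -0.39 and -0.31.

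Among the genes of the spindle checkpoint and of anaphase, 9 of 10 fell, and the tenth, Pttg1, was the only one of the 54 genes that did not pass the test. Pttg1 encodes securin, the inhibitor that separase sheds when sister chromatids part. It gave 19.2, 19.3 and 19.3 CPM in the controls and 19.7, 17.5 and 19.8 CPM with IL-33, so the groups overlapped. Its log2 fold change was -0.018 with a 95% interval of -0.19 to 0.16 (adjusted p = 0.910), an interval that does not reach the median of the 54 genes. Espl1, which encodes separase itself, gave 71.3, 65.4 and 67.2 CPM in the controls and 45.4, 46.1 and 48.2 CPM with IL-33, a log2 fold change of -0.54 ± 0.053 SE (adjusted p = 9.6e-16). Pimreg (ENSMUSG00000020808, chr11:72042032-72047370, plus strand), a mitotic regulator of the step from metaphase to anaphase, had the largest fall of the role. It went from 53.99, 52.6 and 50.3 CPM to 34.7, 31.5 and 33.8 CPM, with a log2 fold change of -0.65 ± 0.061 SE (adjusted p = 2.7e-16), and passed both thresholds. The checkpoint genes Ttk, Bub1b and Bub1 had log2 fold changes of -0.53, -0.51 and -0.48, and Mad2l1, whose protein sequesters CDC20, one of -0.37. Cdc20 and Ube2c, the activator and an E2 enzyme of the APC/C, had log2 fold changes of -0.46 and -0.40. Bub3 had the smallest fall of the 9, by 0.22 on the log2 scale.

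Kinetochore and centromere genes fell in all 9 cases, with a median log2 fold change of -0.50, and gave 3 of the 7 genes past both thresholds. Knl1, the scaffold on which checkpoint proteins gather at the kinetochore, had the largest fall of all 54 genes. Its controls held 81.7, 77.9 and 76.7 CPM and its IL-33 libraries 51.3, 46.5 and 49.6 CPM, 62.4% of the control level, with a log2 fold change of -0.68 ± 0.050 SE (adjusted p = 2.3e-22). Knl1 is ENSMUSG00000027326 at chr2:119047119-119105501 on the plus strand. The 4 genes of the NDC80 complex, the rod that binds microtubules, all fell, and the pair at its kinetochore end was the pair past both thresholds. Spc24 (ENSMUSG00000074476, chr9:21755442-21760303, minus strand) went from 31.8, 31.05 and 30.3 CPM to 18.6, 21.1 and 19.9 CPM, a log2 fold change of -0.65 ± 0.077 SE (adjusted p = 1.2e-11). Spc25 (ENSMUSG00000005233, chr2:69193895-69206194, minus strand) went from 40.0, 38.5 and 35.4 CPM to 24.5, 27.6 and 22.9 CPM, a log2 fold change of -0.60 ± 0.071 SE (adjusted p = 7.4e-12). At the microtubule end, Nuf2 and Ndc80 had log2 fold changes of -0.53 and -0.50, with intervals of -0.67 to -0.40 and -0.63 to -0.36 that overlap those of Spc24, -0.80 to -0.49, and Spc25, -0.75 to -0.46. Cenpa, the histone H3 variant that marks centromeres, fell least of the 9, from 133, 129 and 128 CPM to 107, 111 and 106 CPM, with a log2 fold change of -0.26 ± 0.039 SE (adjusted p = 2.3e-08). The interval of Cenpa, -0.34 to -0.19, did not meet that of Knl1, -0.78 to -0.58. These genes were set side by side as the extremes of the role, and their difference was not tested. Cenpe and Cenpf, large proteins of the outer kinetochore, both had log2 fold changes of -0.39, and Cenpm one of -0.48, which was no longer called without IL-33 replicate 3 (adjusted p = 0.0573).

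Spindle motors and spindle assembly genes fell in all 8 cases, with a median log2 fold change of -0.46, and none of them passed the fold threshold. Kif4, a chromokinesin, had the largest fall, from 55.7, 49.8 and 51.4 CPM to 39.0, 34.5 and 36.5 CPM, with a log2 fold change of -0.51 ± 0.060 SE (adjusted p = 7.4e-12). Its exons share 832 bases with Pdzd11 on the other strand. Kif11 encodes the kinesin that pushes the spindle poles apart, and it had the smallest fall of the 53, from 84.0, 78.7 and 75.7 CPM to 70.1, 70.9 and 73.0 CPM. The lowest control and the highest IL-33 library of Kif11 lay close together, and its log2 fold change of -0.16 ± 0.045 SE (adjusted p = 0.0046) lost its call without control replicate 1 (adjusted p = 0.0782). Kif15, which can stand in for KIF11 at the poles, had a log2 fold change of -0.45 with an interval of -0.54 to -0.36 that did not meet the interval of Kif11, -0.24 to -0.066. Because Kif11 was picked for its small fall, this is a description, and no test of the difference was made. Kif18a was the other gene whose libraries overlapped, with 19.1, 15.3 and 19.0 CPM in the controls and 17.1, 12.3 and 13.5 CPM with IL-33 (log2 fold change -0.32 ± 0.11 SE, adjusted p = 0.016). Its call was also lost in DESeq2 (adjusted p = 0.0533) and when replicate 1 or 3 of the controls, or 2 or 3 of the IL-33 group, was left out (adjusted p = 0.0667 to 0.146). Kif2c, Kif22 and Tpx2, the protein that carries Aurora A to the spindle, had log2 fold changes of -0.51, -0.49 and -0.48, and Hmmr one of -0.28.

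Genes of the central spindle and of cytokinesis fell in all 7 cases, with a median log2 fold change of -0.49. Prc1, which bundles the antiparallel microtubules of the central spindle, gave 69.4, 69.9 and 68.2 CPM in the controls and 47.9, 43.9 and 45.9 CPM with IL-33. With a log2 fold change of -0.59 ± 0.052 SE (adjusted p = 1.1e-17), Prc1 (ENSMUSG00000038943, chr7:80294450-80316259, plus strand) passed both thresholds. Its exons share 911 bases with Rccd1 on the other strand, whose log2 fold change was -0.23 (adjusted p = 0.165). The kinesins of the central spindle, Kif23 and Kif20a, had log2 fold changes of -0.54 and -0.53, and Kif20b one of -0.31, from 79.4, 65.9 and 68.9 CPM to 55.5, 55.5 and 61.5 CPM. Cdc23, on the other strand, shares 1271 exon bases with Kif20a and had a log2 fold change of -0.24. Racgap1 and Ect2, a GTPase-activating protein and the exchange factor that switches on RhoA at the cleavage site, had log2 fold changes of -0.47 and -0.39, and Anln, which ties the contractile ring together, one of -0.49.

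Genes of mitotic chromosome structure fell in all 7 cases, with a median log2 fold change of -0.50, and none of them passed the fold threshold. Top2a, the topoisomerase that untangles sister chromatids, gave 554, 526 and 495 CPM in the controls and 353, 349 and 357 CPM with IL-33, a log2 fold change of -0.57 ± 0.030 SE (adjusted p = 5.2e-28). Mki67, which encodes Ki67, the coat of mitotic chromosomes, gave 545, 493 and 472 CPM in the controls and 350, 338 and 350 CPM with IL-33, a log2 fold change of -0.54 ± 0.041 SE (adjusted p = 1.7e-08). In both genes the control libraries spread more than the IL-33 libraries and lay wholly above them. All 5 condensin genes of the list fell, but not by the same amount. Smc2, Ncapd2 and Ncaph had log2 fold changes of -0.47, -0.50 and -0.54. Smc4 fell by 0.26 (SE 0.032, adjusted p = 2.1e-11), from 309, 293 and 292 CPM to 247, 251 and 246 CPM. Ncapg fell by 0.25 (SE 0.049, adjusted p = 3.3e-05), from 76.2, 71.5 and 67.8 CPM to 61.1, 57.0 and 63.7 CPM. Lcorl, on the other strand, shares 944 exon bases with Ncapg.

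Ratios between the counts of partner genes can be read within each library without any scaling between libraries. Many partners moved nearly alike, such as Ndc80 and Nuf2, with log2 fold changes of -0.50 and -0.53, or Spc24 and Spc25, with -0.65 and -0.60. The 4 ratios that follow were chosen because the log2 fold changes of their genes differed, so their difference between groups is a description with no test. For SMC2 and SMC4, which form 1 heterodimer, the ratio of Smc2 to Smc4 counts was 0.575 ± 0.00922 (SD, n = 3) in controls and 0.497 ± 0.0161 (SD, n = 3) with IL-33. For the condensin I subunits, Ncapg over Ncaph went from 1.23 ± 0.0722 to 1.51 ± 0.0642 (SD, n = 3 each). Securin over separase, Pttg1 over Espl1, went from 0.284 ± 0.0130 to 0.408 ± 0.0274 (SD, n = 3 each). Bub3 over Bub1b, partners in the checkpoint complex, went from 1.62 ± 0.0904 to 1.98 ± 0.0434 (SD, n = 3 each).

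**Figure D4:**
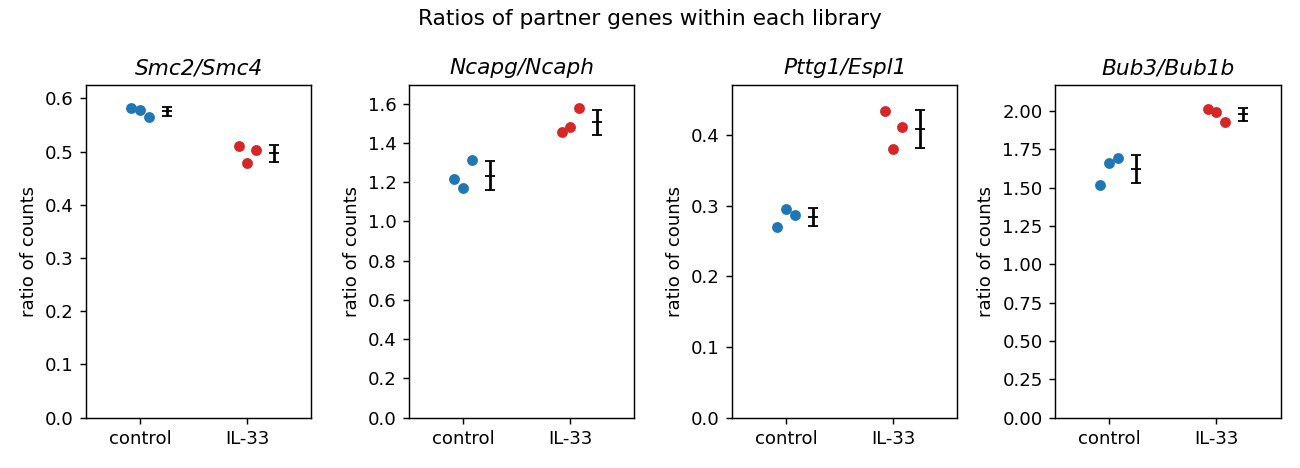
Ratio of the read counts of partner genes in each library (y axis, starting at 0), with a dot for each of the 3 libraries a group and the mean ± SD beside them. Smc2/Smc4 was lower with IL-33 and the ratios Ncapg/Ncaph, Pttg1/Espl1 and Bub3/Bub1b were higher, in pairs chosen because they differed.

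Levels between genes were compared per length, as RPKM (CPM per kilobase of exon). Per length Top2a stood highest in the controls, at 58.3 RPKM, and Smc4 next, at 57.2 RPKM, followed by Mki67 at 50.0, Ccnb2 at 49.2 and Cdc20 at 42.9 RPKM. With IL-33 Smc4 stood first at 47.7 RPKM and Top2a next at 39.2, with Ccnb2 at 36.1, Mki67 at 34.4 and Cdc20 at 31.1 RPKM. In controls Top2a (58.3 ± 3.31, SD, n = 3) and Smc4 (57.2 ± 1.79, SD, n = 3) did not differ beyond their spread, nor did Mki67 (50.0 ± 3.75) and Ccnb2 (49.2 ± 1.13), whereas with IL-33 Smc4 (47.7 ± 0.534) stood clear of Top2a (39.2 ± 0.399). Spread between libraries does not measure the error of the exon lengths, which take in all annotated exons of a gene. The order of genes depends on those lengths. At the other end of the list Kif18a was at 1.81 RPKM in controls and 1.45 with IL-33. Across the 54 genes, which share their libraries, the change did not follow the level, with a Spearman coefficient of 0.050.

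The counts of related genes that follow stand beside 13.9% of all genes tested that fell and 13.6% that rose, or 18.9% and 17.9% of the genes at least as abundant as the least abundant mitotic gene. Of 31 other centromere and kinetochore genes, 24 fell, with a median log2 fold change of -0.34, and none rose at an adjusted p or an unadjusted p under 0.05 by edgeR, nor by DESeq2 or limma-voom. Fits that left out 1 library gave 19 to 24 falls among these genes. Cenph fell most, by 0.54 (SE 0.11, adjusted p = 2.0e-05), and Zwint, the partner of KNL1, was at 151, 169 and 164 CPM in controls and 172, 166 and 159 CPM with IL-33, groups that overlap. The APC/C, whose subunits are needed outside mitosis as well, gave 5 falls and 3 rises among 17 genes, and their median log2 fold change was -0.056. Fbxo5, which encodes the APC/C inhibitor EMI1, was the 1 gene of the 17 past both thresholds, with 46.2, 47.6 and 43.7 CPM in controls and 26.5, 26.0 and 31.7 CPM with IL-33 (log2 fold change -0.71 ± 0.067 SE, adjusted p = 9.0e-16). The 3 rises, a share close to that of all genes, were those of the subunits Cdc27, Anapc4 and Anapc16, with log2 fold changes of 0.24, 0.22 and 0.20.

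Among 16 genes for the factors that bind CHR and CCAAT elements and their partners, 8 fell and 1 rose, beside 13.9% and 13.6% of all genes tested, with a median log2 fold change of -0.15. Foxm1, the activator of G2 and mitotic genes, went from 67.4, 60.2 and 58.1 CPM to 39.2, 37.3 and 37.5 CPM, a log2 fold change of -0.70 ± 0.058 SE (adjusted p = 1.6e-19), and was the 1 gene of the 16 past both thresholds. Mybl2, which encodes B-MYB, had a log2 fold change of -0.48 and Rbl1 one of -0.50. The remaining falls were of 0.27 or less on the log2 scale, those of Tfdp1, Rbbp4, Nfya, Nfyc and Rbl2, and E2f4 rose by 0.10, a call that was lost with total counts, and also when control replicate 2 was left out or IL-33 replicate 1 was. The calls of Nfya, Nfyc and Rbl2 were each lost when some single libraries were left out, both control replicate 2 and IL-33 replicate 3 for the NF-Y genes and control replicate 3 for Rbl2, for example. Without IL-33 replicate 1 the number of falls in this group was 5 in place of 8.

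Of 34 DNA replication genes, 30 fell, with a median log2 fold change of -0.41 and a range of -0.92 to -0.00073, and 8 passed both thresholds. Their counts thus stood beside those of the mitotic genes, 53 of 54 with a median of -0.48 and a range of -0.68 to -0.018, and no test of the difference was made. The largest falls among them were those of Fen1, at 2.19 CPM or less in every library (log2 fold change -0.92 ± 0.33 SE, adjusted p = 0.028), Cdc6 (-0.74 ± 0.070 SE, adjusted p = 3.2e-16), Cdt1 (-0.70 ± 0.065 SE, adjusted p = 1.2e-16) and Gins1 (-0.69 ± 0.14 SE, adjusted p = 2.5e-05). The call of Fen1 was lost by DESeq2, without control replicate 3 and without IL-33 replicate 2. Over the fits that left out 1 library, 26 to 30 of the 34 DNA replication genes fell.

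**Figure D5:**
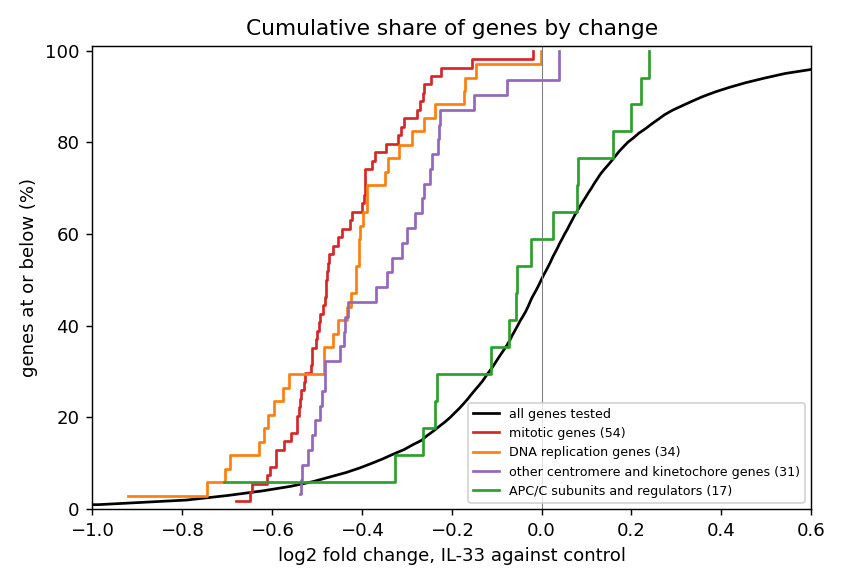
Cumulative share of genes (y axis, percent) at or below each log2 fold change (x axis) for all genes tested, the 54 mitotic genes, 34 DNA replication genes, 31 other centromere and kinetochore genes and 17 APC/C genes. The curve of the mitotic genes lies wholly below 0, with a median of -0.48, while that of all genes tested crosses 50% at a log2 fold change of about 0 and that of the APC/C genes lies close to it.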

How the data were processed

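RNA of 6 libraries, 3 controls and 3 with IL-33 as the labels group them, was sequenced. The table that the authors deposited holds unnormalized read counts for each gene and library, beside 1 column of means that was not used here. Bowtie 0.12.2 and mm8 are named in the submitters' processing notes, with no role. The counting program and its use of strand are not stated in the paper or the labels. For library preparation the labels name an Illumina TruSeq kit and the study's methods a NEBNext Ultra kit. No batch is given.

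Ensembl identifiers of 26072 genes matched a symbol in GENCODE M21 (GRCm38), the source of gene positions and of the summed exon lengths behind RPKM. CPM and RPKM were computed here from library totals after the filter, scaled by TMM. Genes were filtered with filterByExpr (minimum count 10, minimum total count 15), scaled by TMM and tested by edgeR's quasi-likelihood method (two-sided, robust, group as the only term), with Benjamini-Hochberg adjustment over the 14671 genes tested. The filter removed 0.110% of counts. The log2 fold threshold of 0.585 and the adjusted p under 0.05 are the study's. Errors and 95% intervals of fold changes come from the same fit. Simulated data were used to check its fold changes and calls, and not its errors or intervals. The software was edgeR 4.0.16, DESeq2 1.42.0 and limma 3.58.1 in R 4.3.3.

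The members and lists were chosen with earlier results of these data known. Members to describe in full were those past both thresholds or without a call, the extremes of each role, the 3 highest per length, and Mki67, Cdk1, Ccnb1, Plk1 and Aurkb, which gave 22 genes. In each other list they were the members past both thresholds, at most 4, or else the called member with the largest change. Further genes were named after their values were seen. Alternatives were other scalings, tests and filters, a narrower promoter window, fits without 1 library each, and a block on replicate number. Same-numbered libraries did not deviate together (correlations of 0.0116, 0.00317 and 0.0107), so the numbers were not taken to pair them. No pair of replicates agreed within sampling noise. Of the 54 genes, 16 share exon bases with another annotated gene, mostly on the other strand, and reads of such pairs cannot be told apart if strand was not used.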

Additional observations from a re-analysis of the deposited data

How the results depend on the processing

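The number of mitotic genes that fell was 53 in the main analysis and 50 to 53 in 14 of the 15 alternatives, with 0 rises in any. The exception was the edgeR test against the fold threshold itself, by which 0 of the 54 genes passed, whether counted by the adjusted p or by both thresholds, and by which 113 genes of all tested passed. Leaving out each library in turn gave 50 to 53 falls, 5 to 9 genes past both thresholds in place of 7, and medians of -0.51 to -0.44 in place of -0.48. It gave 621 to 719 genes of all tested past both thresholds and 3366 to 3664 at the adjusted p alone, where the main analysis gave 714 and 4036, and fewer samples entered each of these fits. Total counts gave 8 mitotic genes past both thresholds and upper quartile factors 5. With the replicate number as a block, 53 mitotic genes fell and 7 passed both thresholds, and of all genes 1914 fell and 1884 rose. Of 810 pairs of a gene and an alternative, 748 kept direction and call, and 61 lost the call, 53 of them in the test against the fold threshold. The others were Cdc25c and Kif11 without control replicate 1 (adjusted p = 0.0566 and 0.0782), Cenpm without IL-33 replicate 3 (0.0573) and Kif18a in DESeq2 and in 4 fits without 1 library (0.0533 to 0.146). Pttg1, with no call, ranged from -0.048 to 0.040 over the fits that left out 1 library, the latter without IL-33 replicate 2 (adjusted p = 0.830). The cause of these shifts was not tested. Scaling moved the median of all genes by at most 0.018 on the log2 scale. Cdc25c and Cenpm, among the genes that lost their call, rest on 183 to 261 and 138 to 236 counts a library.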

Other observations

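Of 13 genes for CDK inhibitors and brakes on mitotic entry, 5 fell and 3 rose, beside 13.9% and 13.6% of all genes tested (18.9% and 17.9% of the genes at least as abundant as the least abundant mitotic gene), with a median log2 fold change of -0.038. Cdkn1a, which encodes the CDK inhibitor p21, gave 303, 300 and 311 CPM in controls and 399, 413 and 392 CPM with IL-33, a log2 fold change of 0.40 ± 0.030 SE (adjusted p = 1.8e-21 by edgeR's quasi-likelihood test). Cdkn1b, which encodes p27, and Gadd45b rose by 0.16 and 0.19 on the log2 scale (adjusted p = 0.00059 and 0.048), of which the call of Gadd45b was lost with total counts, by DESeq2 and limma-voom, with the replicate block and without control replicate 2, among others. Chek1, the checkpoint kinase of stalled replication, fell from 19.9, 15.6 and 15.1 CPM to 10.8, 9.16 and 12.4 CPM (log2 fold change -0.64 ± 0.11 SE, adjusted p = 2.7e-06). The CDK inhibitor gene Cdkn2c had a log2 fold change of -0.56, and the kinases that put the inhibitory phosphates on CDK1, Pkmyt1 and Wee1, fell by 0.51 and 0.33.

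Among 15 genes of cohesin, the ring that holds sister chromatids together, and its regulators, 8 fell and 1 rose, beside the same shares over all that were tested, with a median log2 fold change of -0.11. Esco2, the acetyltransferase that locks cohesin on chromatin in S phase, went from 35.7, 32.2 and 29.98 CPM to 17.1, 20.5 and 22.3 CPM (log2 fold change -0.71 ± 0.081 SE, adjusted p = 1.6e-11). Sgo2a, Cdca5 and Sgo1, protectors of cohesion that act in G2 and mitosis, had log2 fold changes of -0.51, -0.48 and -0.44. The ring subunits Smc1a, Rad21 and Smc3 fell less, by 0.27, 0.15 and 0.11, and Wapl, the factor that releases cohesin, rose by 0.12, a call that was lost without control replicate 2 or IL-33 replicate 3. The call of Smc3 was lost by DESeq2 and without control replicate 1 or 3 or IL-33 replicate 2 or 3. Of the ring subunits Stag1 and Stag2, the log2 fold changes were -0.050 and 0.033, with adjusted p of 0.39 and 0.52.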
